A study of Drosophila mojavensis with 14 samples.

Results

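The comparison described here set females of the cactus fly *Drosophila mojavensis* that had copulated with males of *Drosophila arizonae*, a closely related species (heterospecific mating), against females mated to *Drosophila mojavensis* males (conspecific mating), 6 h after copulation. It rests on 4 of the 14 arrays of the study: heterospecific 6 h replicates 1 and 2 and conspecific 6 h replicates 1 and 2, chosen by their labels. All 14519 transcripts on the array were compared. RNA came from the lower reproductive tract of the female, was amplified before labelling with Cy3, and was hybridised to 1-colour NimbleGen arrays. The other 10 arrays held both mating types at 2 h and at 15 min and virgin females, again with 2 arrays a group.

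Females of all groups came from the isofemale line labelled ANZA 402.17, and the males of each species came from a single isofemale line too, so each species is represented by 1 line. Females of both mating types, like the virgins, were aged for 10 to 12 days after they were collected as virgins, and each mated female was placed with 2 males. Each array carries a pool of 20 to 25 tracts, and the labels call the 2 arrays of a group biological replicates. In such pools, fewer cells of a type and less RNA per cell cannot be told apart, and neither can RNA made by the female and RNA delivered by the male. The probes were not compared with sequence of Drosophila arizonae, so how RNA from its males binds them was not tested.

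The lower tract of a female fly receives the ejaculate, stores and releases sperm and prepares eggs for laying. The seminal fluid carries proteins made in the male accessory glands, many of them named Acp (accessory gland protein), which in Drosophila melanogaster are known to change egg laying, sperm storage and the female's readiness to mate again. In Drosophila mojavensis mating is also followed by an insemination reaction, a mass that forms in the female tract and that is known to be stronger after mating with Drosophila arizonae males. Where a symbol is known, a transcript can be described by the known role of its product, such as a protein of the male gland or an enzyme. That role does not show in which sex the RNA was made.

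On the array, 14471 transcripts carry only a GI identifier and 48 carry a symbol, and the reference table at hand matched none of these names. GI identifiers are therefore given as the files have them, with no gene name or role. Markers of muscle, fat body, ovary, nerve or blood cells need such names and were not analysed here. The transcripts named Acp and those named Tes or moj could be followed by their symbols, although the labels do not explain the Tes and moj prefixes. Levels are log2 intensities after background correction and quantile normalization, and each difference is heterospecific minus conspecific, so 1 on this scale is a doubling. A transcript below an array's background limit (7.45 and 7.46 on the heterospecific arrays, 7.73 and 7.49 on the conspecific arrays) on each array of a group is described as not above background in that group, and a contrast with it is given as at least so many fold. In the 6 h groups 9543 transcripts, or 65.7%, were above background in at least 1 group, 452 of them only after heterospecific and 549 only after conspecific mating.

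The 4 arrays were not equally bright. Before normalization, the upper quartile of probe intensity was 2442 and 2664 on the heterospecific arrays, against 1183 and 2404 on conspecific replicates 1 and 2. Conspecific replicate 1 is thus 1 of the 4 dim arrays of the study, those with an upper quartile under 1500. The others are conspecific 2 h replicate 1 (1413), conspecific 15 min replicate 2 (943) and virgin replicate 2 (1056). Each conspecific group thus holds 1 dim array, and no heterospecific group holds any. Conspecific 6 h replicate 1 was also the only one of the 4 arrays at 6 h whose values were read from its image on day 2 of the 2 days in the file headers. Both virgin arrays were read on day 2 as well. In contrasts of heterospecific 6 h tracts with virgins, day and mating therefore cannot be told apart. The slope of intensity along the transcript, a measure of RNA or amplification quality, was 0.41 on conspecific replicate 1, against 0.64 on conspecific replicate 2. The heterospecific arrays had 0.62 and 0.50. Among transcripts above background, the median absolute difference between the 2 arrays of a group was 0.165 for heterospecific and 0.384 for conspecific mating. The median absolute difference between the group means was 0.320. It is not directly comparable with these values, since means of 2 arrays vary less than single arrays. Several differences, the correlations with earlier times and the counts of calls are therefore given with and without conspecific replicate 1. The part of this array in them was not tested beyond that. Other differences are given with both conspecific arrays only.

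A single transcript, GI11382, passed the threshold. It was higher after heterospecific mating, and no transcript was lower. The call came from limma with Benjamini-Hochberg adjustment over all 14519 transcripts at 0.05, so 0.00689% were called higher. The second-lowest adjusted p was 0.364. At an unadjusted p under 0.05 there were 1428 transcripts (9.84%), of which 699 (4.81%) were higher and 729 (5.02%) lower after heterospecific mating. That balance depended on the scaling: with median scaling in place of quantile normalization the numbers were 858 higher and 208 lower, or 80.5% higher against 49.0%.

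Differences past 2-fold were few. They numbered 92 (0.634%) above 1 and 149 (1.03%) below -1, and both arrays of 1 group lay outside the other's range for 72 and 134 of these, where 48.0% of all transcripts had groups that did not overlap. Among transcripts above background the median difference was 0.13, and the 5th and 95th percentiles were -0.72 and 0.73. The median SE of a difference was 0.22.

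**Figure D1:**
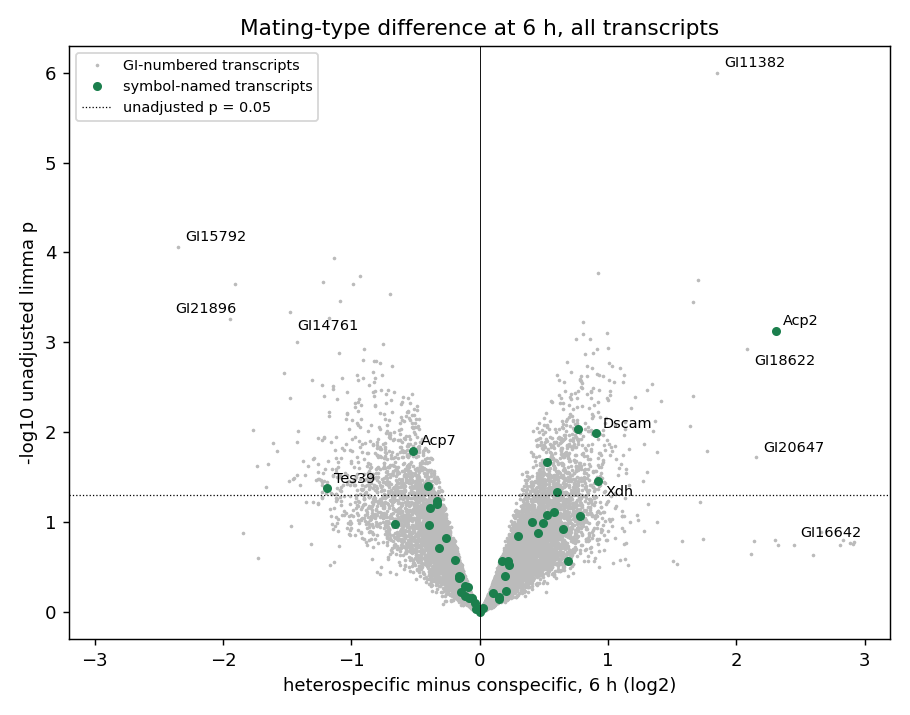
Each point is a transcript, with the heterospecific minus conspecific difference at 6 h (log2) on the x axis and -log10 of the unadjusted limma p on the y axis. GI11382 stands alone at the top, Acp2 is the symbol-named transcript with the highest difference, and GI16642 leads the points at the far right that have large differences and high p.

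GI11382 was at 8.66 and 8.71 in heterospecific tracts, against 7.06 and 6.61 in conspecific tracts. The heterospecific arrays lay close together and far above both conspecific arrays, which were not above background. The difference was 1.85 (SE 0.18; limma adjusted p = 0.0146), and the level was at least 2.11-fold higher. All 5 probes had groups that did not overlap, with differences of 0.77 to 2.29 per probe, so no single probe carried the value. Virgin tracts had 6.82 and 6.71, not above background either, and heterospecific tracts at 6 h were at least 2.04-fold above them. The difference was 2.47 at 15 min and 1.97 at 2 h, from other arrays, and the level after conspecific mating was not above background at either time. The call was lost with median scaling (adjusted p = 0.369), with cyclic loess (0.114), in a fit of the 4 arrays alone (0.431), and without heterospecific replicate 1 (0.118) or 2 (0.375), conspecific replicate 2 (0.0985) or either heterospecific array at 2 h (0.0534). The difference itself stayed between 1.41 and 2.60 over all 29 alternatives.

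**Figure D2:**
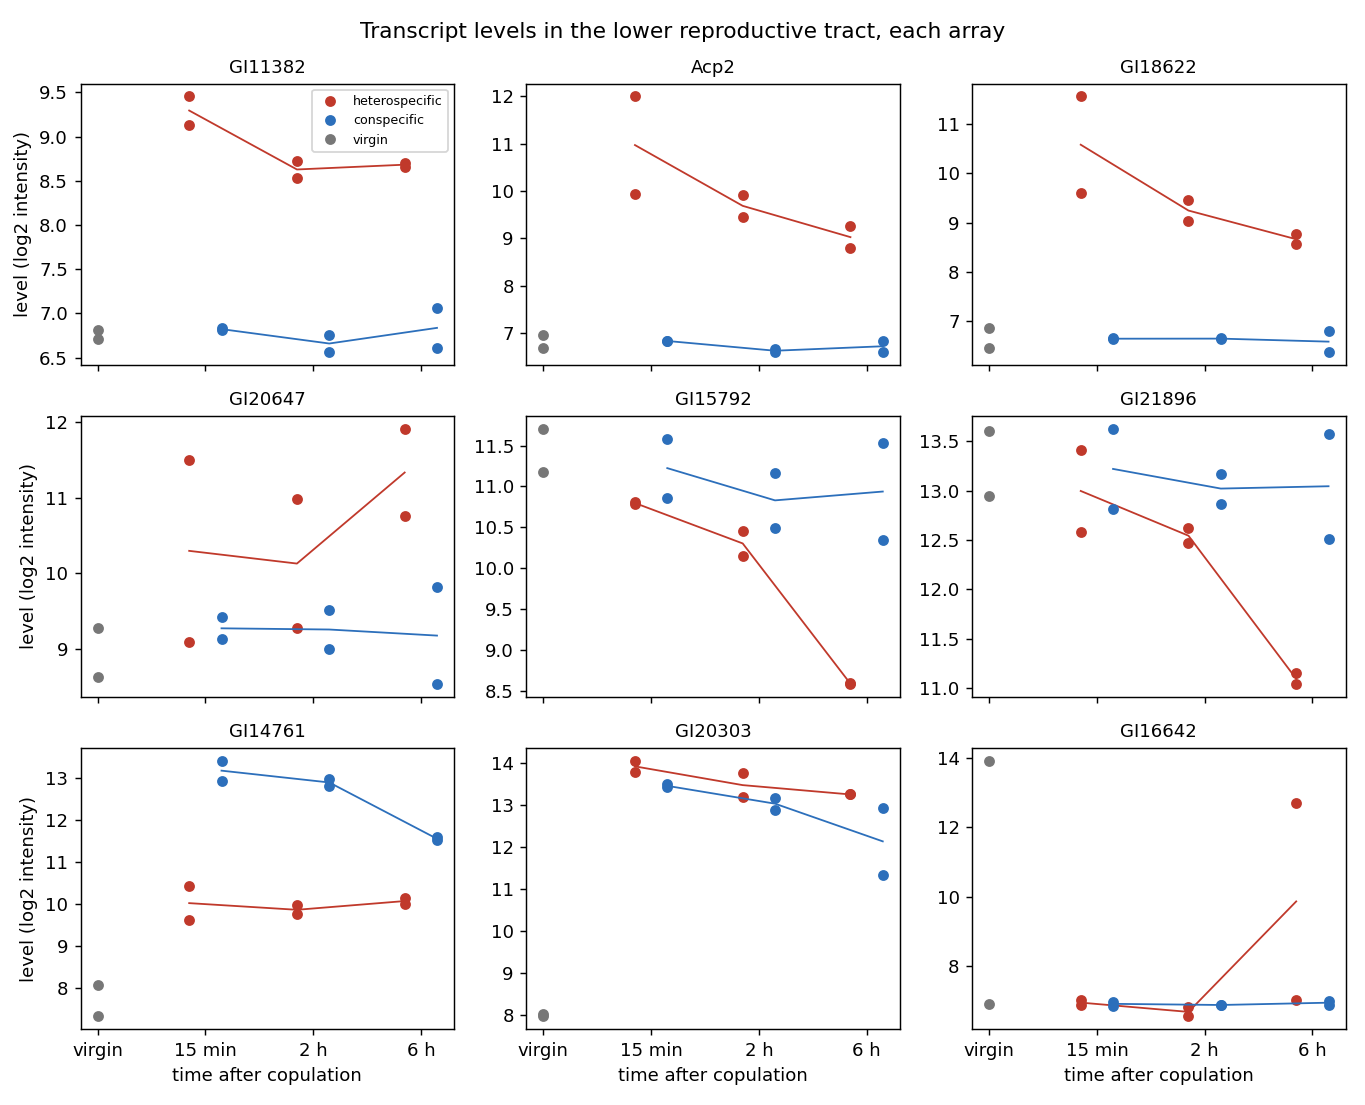
Levels (log2 intensity) of 9 transcripts on each array for virgin tracts and at 15 min, 2 h and 6 h after copulation, with lines through the means of heterospecific (red) and conspecific (blue) groups. GI11382, Acp2 and GI18622 lie far above the conspecific and virgin arrays at all 3 times, GI15792 and GI21896 part at 6 h, and GI16642 is high on only heterospecific 6 h replicate 2 and virgin replicate 2.

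The transcripts named Acp, after proteins of the male gland, differed among themselves. Of the 4 on the array, 3 were above background in at least 1 group at 6 h, none passed the threshold in either direction, and 3 had positive differences and 1 a negative one. Their median difference was 0.41, beside 0.01 over all transcripts and 0.13 over those above background. Under median scaling the median of the 4 was 0.11 and 2 of the 4 differences were negative. Their symbols name products of the accessory gland, a male organ, so the values in virgin females serve as the level without any mating.

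Acp2, named as an accessory gland protein, had the highest difference of all symbol-named transcripts. Its level was 9.26 and 8.79 in heterospecific tracts, against 6.60 and 6.84 in conspecific tracts. Neither the conspecific arrays nor the virgin arrays, at 6.68 and 6.96, were above background. The difference was 2.31 (SE 0.49) and missed the threshold (limma adjusted p = 0.502, unadjusted p = 0.000743). The level was at least 2.67-fold higher than after conspecific mating and at least 2.59-fold higher than in virgins. The 4 probes agreed closely, with differences of 1.98 to 2.50, but they lie close together, at positions 55 to 68 of the transcript. Without conspecific replicate 1 the Acp2 difference was 2.19. It had the same value with arrays of day 1 alone and without the 4 dim arrays, since conspecific replicate 2 is then the only conspecific 6 h array. Leaving out either heterospecific array at 15 min left the difference at 2.31.

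The heterospecific arrays of Acp2 lay lower at each later time, a course for which no test was run. They gave 9.94 and 12.00 at 15 min, then 9.46 and 9.91 at 2 h, then 9.26 and 8.79 at 6 h, while all conspecific arrays lay between 6.60 and 6.84. Against the conspecific level, Acp2 was at least 10.3-fold higher at 15 min, at least 4.37-fold higher at 2 h and at least 2.67-fold higher at 6 h. The difference at 6 h was lower by 1.83 than that at 15 min (unadjusted p = 0.0239), and this contrast between times did not pass the threshold (limma adjusted p = 0.983). The 2 heterospecific arrays at 15 min were themselves more than 2 apart on the log2 scale.

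The other Acp transcripts had smaller differences, in both directions. Acp11 was at 7.47 and 7.46 in heterospecific tracts, against 6.94 and 6.69 in conspecific tracts, which were not above background. The heterospecific level lay just at the background limit, so no fold is given, and the difference of 0.65 did not pass the threshold (limma adjusted p = 0.537). At 15 min the heterospecific level of Acp11 had been at least 2.38-fold above the conspecific one, and at 2 h at least 1.29-fold. Acp7 ran the other way, with 7.46 and 7.47 in heterospecific tracts, against 8.15 and 7.81 in conspecific tracts. Its groups did not overlap, but its heterospecific level also lay just at the background limit. The difference of -0.52 did not pass the threshold either (limma adjusted p = 0.502). Virgin tracts held Acp7 at 7.78 and 7.73, within the range of the mated arrays. Acp48, at 6.73 and 6.60 in heterospecific and 6.58 and 6.41 in conspecific tracts, was not above background in any group of the study, and its difference of 0.17 turned to -0.10 under median scaling.

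Among the GI identifiers, the 2 with the highest differences were GI20647 and GI18622, taken from those with an unadjusted p under 0.05, groups that did not overlap and a level above background. GI18622 was at 8.76 and 8.57 in heterospecific tracts, against 6.37 and 6.79 in conspecific tracts, which were not above background. The heterospecific level was at least 2.08-fold higher, and the difference of 2.08 missed the threshold (SE 0.47; limma adjusted p = 0.502). All 5 probes, at positions 62 to 244, showed it, with differences of 1.90 to 2.28. Like Acp2, this transcript was lower in heterospecific tracts at each later time, with 9.60 and 11.56 at 15 min and 9.04 and 9.45 at 2 h, and was not above background in any conspecific or virgin group. Without conspecific replicate 1 the difference was 1.87, and likewise with arrays of day 1 alone and without the dim arrays.

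GI20647 differed more between replicates. It was at 11.91 and 10.75 in heterospecific tracts, against 8.54 and 9.82 in conspecific tracts. The groups did not overlap, but each spread by more than 1. The difference was 2.15 (SE 0.78; limma adjusted p = 0.502), or 2.79 against conspecific replicate 1 alone and 1.51 against replicate 2 alone. At the earlier times 1 heterospecific array of 2 lay near the conspecific arrays, with 11.50 and 9.10 at 15 min and 9.28 and 10.98 at 2 h.

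GI15792 and GI21896 had the lowest differences by the same rule. GI15792 was at 8.60 and 8.58 in heterospecific tracts, against 11.53 and 10.35 in conspecific tracts. Both heterospecific arrays lay well below both conspecific ones, although the conspecific arrays were themselves more than 1 apart. The difference of -2.35 (SE 0.38) had the second-lowest p of the comparison and did not pass the threshold (unadjusted p = 8.65e-05, limma adjusted p = 0.364). It was -2.94 against conspecific replicate 1 alone and -1.76 against replicate 2 alone. With arrays of day 1 alone and without the dim arrays it was also -1.76, since replicate 2 is then the only conspecific 6 h array. Virgin tracts had 11.18 and 11.71, close to the conspecific level. Against virgins, GI15792 fell by 2.85 in heterospecific tracts at 6 h (limma adjusted p = 0.0192), and in conspecific tracts the difference was -0.50 (adjusted p = 0.878).

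On these arrays the gap was wider at 6 h than before. Heterospecific tracts had 10.79 and 10.81 at 15 min and 10.46 and 10.15 at 2 h, against 10.86 and 11.59 and then 11.17 and 10.49 in conspecific tracts, so the differences were -0.43 and -0.53. The difference at 6 h was lower by 1.92 than at 15 min (unadjusted p = 0.00479) and by 1.82 than at 2 h (unadjusted p = 0.00659), and neither contrast passed the threshold (limma adjusted p = 0.983 and 1.00). The 4 probes that showed the gap start at positions 80, 81, 82 and 84, so they lie very close together. The fifth probe, at position 219, was at 15.99 and 16.00 in heterospecific tracts, against 15.99 and 15.98 in conspecific tracts, at the top of the scale on all 4 arrays.

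GI21896 followed the same course at a higher level. It was at 11.04 and 11.15 in heterospecific tracts, against 13.58 and 12.51 in conspecific tracts, and the groups were clearly apart. The difference was -1.95 (SE 0.40; limma adjusted p = 0.502), after -0.22 at 15 min and -0.48 at 2 h. Without conspecific replicate 1 it was -1.42, and likewise with arrays of day 1 alone. Virgin tracts had 12.94 and 13.61, near the conspecific level, and the difference between heterospecific tracts and virgins was -2.18 (adjusted p = 0.0605). Here too the 4 probes that showed the difference lie together, at positions 55 to 62, and the probe at position 5 was at 5.94 and 6.27 in heterospecific and 6.20 and 6.26 in conspecific tracts. Those values of the probe at position 5 lie below the background limits set for transcripts.

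**Figure D3:**
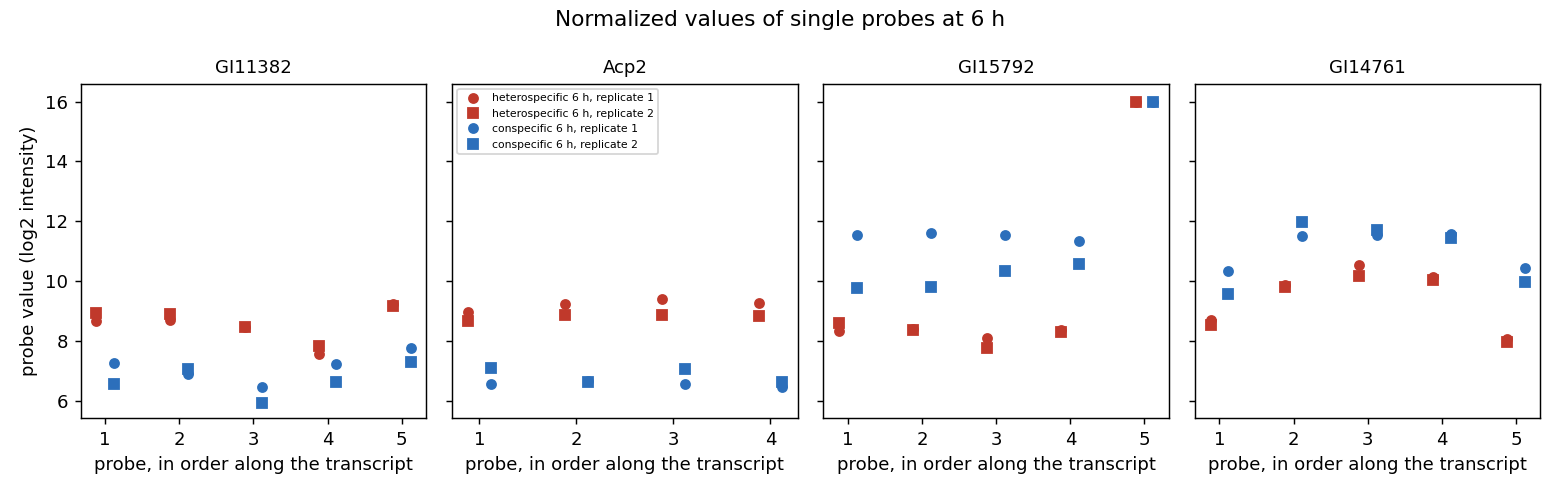
Normalized log2 intensity of each probe of 4 transcripts on the 4 arrays at 6 h, with probes in order along the transcript on the x axis. The groups are apart at all probes of GI11382, Acp2 and GI14761 and at 4 of 5 probes of GI15792, whose last probe is at the top of the scale on all 4 arrays.

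2 more transcripts were chosen after their values were seen, because they stood far above virgins at 6 h. GI14761 was at 10.15 and 9.99 in heterospecific tracts, against 11.59 and 11.52 in conspecific tracts, where virgin tracts had 7.32 and 8.07. Both pairs of replicates were tight and lay on either side of a clear gap, while all 4 mated arrays stood above the virgins. Heterospecific tracts were higher than virgins by 2.37 (limma adjusted p = 0.0135) and conspecific tracts by 3.86 (adjusted p = 0.00114), with both virgin arrays read on day 2. The difference between the mating types, -1.48 (SE 0.30), did not pass the threshold (limma adjusted p = 0.502). Without conspecific replicate 1 the difference was -1.45, and likewise with arrays of day 1 alone. All 5 probes, at positions 163 to 378, showed it, with differences of -2.19 to -1.26.

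The gap in GI14761 was smaller at 6 h than before. It was -3.15 at 15 min and -3.03 at 2 h. Heterospecific arrays held between 9.62 and 10.42 at all 3 times, whereas conspecific arrays had 13.41 and 12.94 at 15 min, then 12.97 and 12.81 at 2 h, before the 6 h values above. The change of the gap was 1.67 from 15 min (unadjusted p = 0.00233) and 1.55 from 2 h (unadjusted p = 0.00382), neither past the threshold (limma adjusted p = 0.983 and 1.00).

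GI20303 was at 13.25 on both heterospecific arrays, against 12.93 and 11.34 on the conspecific arrays. Virgin tracts had 8.04 and 7.97, so both mated groups stood high. Heterospecific tracts were higher than virgins by 5.24 (limma adjusted p = 0.000705) and conspecific tracts by 4.13 (adjusted p = 0.00529). The difference between mating types was 1.11 (limma adjusted p = 0.502) and turned on the conspecific array used, with 0.32 against replicate 1 alone and 1.91 against replicate 2 alone. With arrays of day 1 alone and without the dim arrays, replicate 2 is the only conspecific 6 h array, so the difference was again 1.91. At 15 min and 2 h the differences were 0.46 and 0.44.

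The highest differences of the whole comparison came from 1 array, heterospecific replicate 2. GI16642, also chosen after its values were seen, led the list with a difference of 2.92. Its level was 7.04 and 12.71 in heterospecific tracts, against 7.01 and 6.90 in conspecific tracts, so only heterospecific replicate 2 was high. Without that array the difference was 0.08. In all, 22 transcripts lay more than 2 above the other 3 arrays on heterospecific replicate 2, all with differences over 1, and their lowest unadjusted p was 0.0982. They included all 9 transcripts with a higher difference than Acp2. This limit of 2 was also set after the values were seen. Of these 22, 20 were also more than 2 higher on virgin replicate 2 than on virgin replicate 1. Their median over the other 12 arrays was 6.99, at the level of background. On conspecific replicates 1 and 2 the same count was 7 and 12 transcripts, and on heterospecific replicate 1 it was 0.

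**Figure D4:**
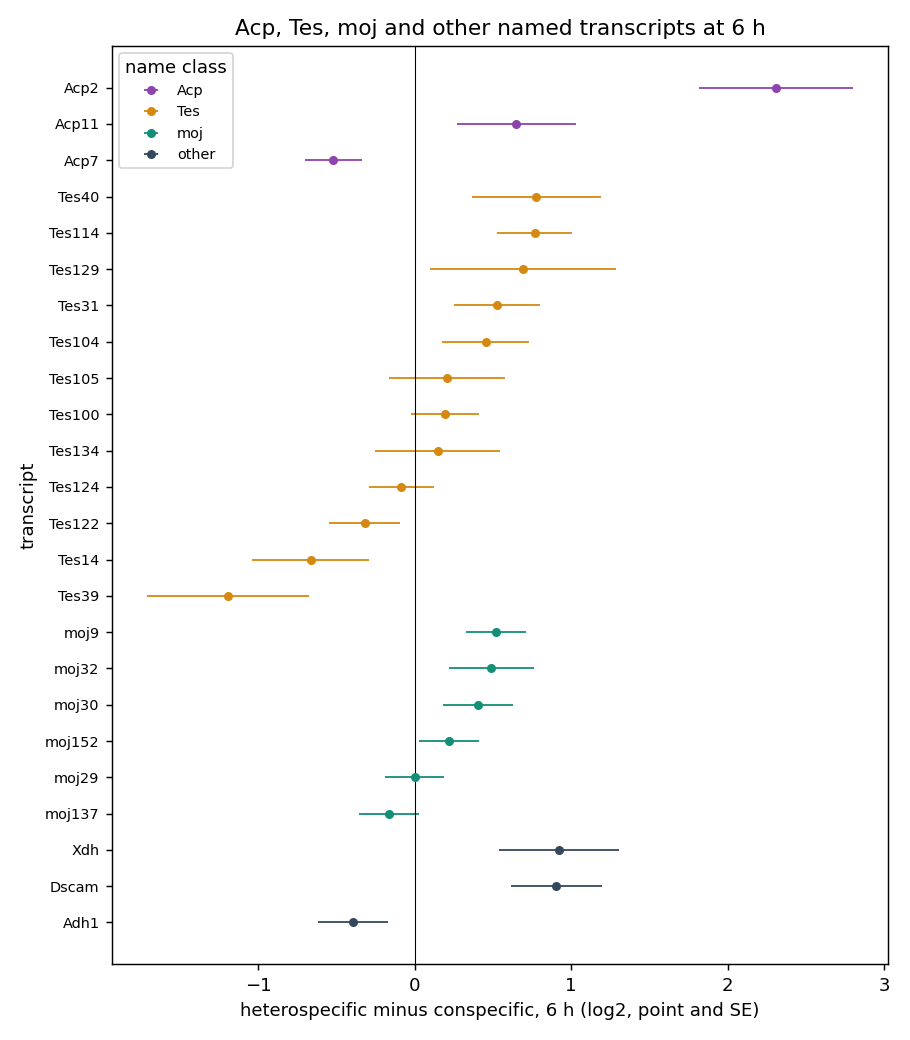
Heterospecific minus conspecific difference at 6 h (log2, point and SE) for the transcripts named Acp, Tes and moj above background in at least 1 group and for Xdh, Dscam and Adh1, in that order. Acp2 lies farthest right at 2.31 and Tes39 farthest left at -1.19, and most of the rest lie within 1 of 0.

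Of the 48 symbol-named transcripts, 33 were above background at 6 h. Of all 48, 29 had groups that did not overlap, where the share over all transcripts was 48.0%. Some of these 29 were not above background in either 6 h group. None of the 48 passed the threshold. At an unadjusted p under 0.05, 6 were higher and 3 lower (1 of the 3, Tes41, not above background in either group), where 4.81% of all transcripts were higher and 5.02% lower. Among the 13 with symbols outside the Acp, Tes and moj names, 3 were higher at that level and none was lower, beside the same 4.81% and 5.02%, and the median difference was 0.02. Under median scaling that median was 0.52, and under cyclic loess it was 0.08.

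Xdh, which encodes xanthine dehydrogenase, an enzyme of purine breakdown, was at 9.44 and 8.77 in heterospecific tracts, against 8.06 and 8.31 in conspecific tracts. The difference was 0.92 (SE 0.38), with an unadjusted p of 0.0348 and a limma adjusted p of 0.502. At the earlier times it had the other sign, with -0.47 at 15 min and -0.52 at 2 h. The difference at 6 h exceeded the one at 15 min by 1.39 (unadjusted p = 0.0261) and the one at 2 h by 1.44 (unadjusted p = 0.0222), neither past the threshold (limma adjusted p = 0.983 and 1.00). Virgin tracts had 9.79 and 9.88, and the difference from them was -0.73 for heterospecific and -1.65 for conspecific tracts (limma adjusted p = 0.334 and 0.228). The probe nearest the start of those on the array, at position 2685, had no gap (-0.01), and the other 4 had differences of 0.81 to 1.21. At 7.14 and 6.87 in heterospecific and 7.15 and 6.89 in conspecific tracts, that probe lay below the background limits set for transcripts.

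Dscam, a cell surface protein of the immunoglobulin superfamily known from the wiring of neurons, was at 9.17 and 8.48 in heterospecific tracts, against 7.81 and 8.03 in conspecific tracts. The groups did not overlap and all 4 probes ran the same way. The difference was 0.90 (SE 0.29; unadjusted p = 0.0103, limma adjusted p = 0.502), after -0.20 at 15 min and 0.45 at 2 h. Marf, the mitofusin that joins mitochondria, had a difference of 0.60 (unadjusted p = 0.0461), and its lowest heterospecific array, at 9.48, was hardly above its highest conspecific array, at 9.44.

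The alcohol dehydrogenases, which oxidise ethanol, had no called difference. Adh1 was at 9.18 and 9.26 in heterospecific tracts, against 9.62 and 9.61 in conspecific tracts, a difference of -0.39 (limma adjusted p = 0.529). Its groups did not overlap, but under median scaling the difference was near 0 (-0.0004). Adh2 had a difference of -0.06. The clock gene per, the corepressor gene CtBP and the splicing factor gene snf had differences of -0.03, 0.02 and -0.16, and in each of them the groups overlapped.

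The Tes transcripts, 25 in number, had differences in both directions, and most of the 6 moj transcripts had positive ones. Of the Tes transcripts, 12 were above background, 10 of the 25 differences were positive and 15 negative, where 7445 of all transcripts were positive and 7074 negative, and the median was -0.08. At an unadjusted p under 0.05, 1 was higher and 2 were lower, beside 9.84% of all transcripts in either direction, and none passed the threshold. Of the 2 lower, Tes41 was not above background in either group, with 6.74 and 6.72 in heterospecific and 7.23 and 7.04 in conspecific tracts. Of the moj transcripts, all 6 were above background, 5 differences were positive (that of moj29 only 0.0006), and the median was 0.31. Over all transcripts above background the median was 0.13. The median of moj was 0.65 with median scaling and 0.33 with cyclic loess, and that of Tes was -0.18 and -0.03.

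Tes39 had the lowest difference among the symbols, with 11.49 and 11.37 in heterospecific tracts, against 13.12 and 12.13 in conspecific tracts. The difference of -1.19 (SE 0.51; unadjusted p = 0.0418, limma adjusted p = 0.502) was -1.69 against conspecific replicate 1 alone and -0.69 against replicate 2 alone. Tes14 was at 11.15 and 11.05 in heterospecific tracts, against 12.09 and 11.43 in conspecific tracts, a difference of -0.66 (limma adjusted p = 0.529), which was -0.06 under median scaling. Under that scaling Tes39 had -0.68. Tes122, one of the brightest, was at 14.62 and 14.68 in heterospecific tracts, against 15.28 and 14.66 in conspecific tracts, and its groups overlapped. In all 3, conspecific replicate 1 was the higher conspecific array. The difference of Tes14 was -0.99 against replicate 1 alone and -0.33 against replicate 2 alone, and that of Tes122 was -0.63 and -0.01.

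Tes114 and Tes40 stood at the upper end of the Tes transcripts. Tes114 was at 8.06 and 8.27 in heterospecific tracts, against 7.29 and 7.51 in conspecific tracts, a difference of 0.77 (SE 0.24; unadjusted p = 0.00911, limma adjusted p = 0.502). Tes40 was at 9.70 and 10.24 in heterospecific tracts, against 9.16 and 9.22 in conspecific tracts, a difference of 0.78 (limma adjusted p = 0.515). Among the moj transcripts, moj9 had 14.12 and 14.21 in heterospecific tracts, against 13.55 and 13.75 in conspecific tracts, a difference of 0.52 (unadjusted p = 0.0215, limma adjusted p = 0.502).

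The mating-type difference at 6 h was set beside those at 15 min and 2 h, which come from other arrays. Over all 14519 transcripts the differences at 6 h correlated with those at 2 h at r = 0.67 (Spearman 0.65) and with those at 15 min at r = 0.38 (Spearman 0.36). Transcripts are not independent replicates, and all arrays were normalized together. At each time 1 of the 2 conspecific arrays was dim and no heterospecific array was. The part of brightness in these correlations was not tested. Of the 1428 transcripts with an unadjusted p under 0.05 at 6 h, 90.1% had the same sign at 2 h, where 73.0% of all transcripts did, and 72.9% had the same sign at 15 min, where 62.2% of all did. Those that passed an unadjusted p under 0.05 in the same direction at both times numbered 351 with 2 h, which is 24.6% of the 6 h list and 30.9% of the 2 h list, and 64 with 15 min, which is 4.48% of the 6 h list and 13.4% of the 15 min list. In opposite directions there were 1 and 2. Over all 14519 transcripts, 1136 had an unadjusted limma p under 0.05 at 2 h and 478 at 15 min. All these comparisons take the spread of a transcript from the same fit, so the lists are not independent.

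The likeness to 2 h differed with the conspecific array used, and that to 15 min less so. With conspecific 6 h replicate 1 alone, whose image was read on day 2, r with 2 h was 0.65. With replicate 2 alone, read on day 1, it was 0.46. With 15 min, r was 0.34 for replicate 1 and 0.32 for replicate 2. All heterospecific arrays at 2 h and 6 h were read on day 1 and both conspecific arrays at 2 h on day 2, so at 2 h the day and the mating type cannot be told apart. The SD of the 6 h differences over transcripts was 0.572 against replicate 1 alone and 0.328 against replicate 2 alone. Differences above 1 numbered 661 against replicate 1 and 57 against replicate 2, and those below -1 numbered 553 and 110.

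**Figure D5:**
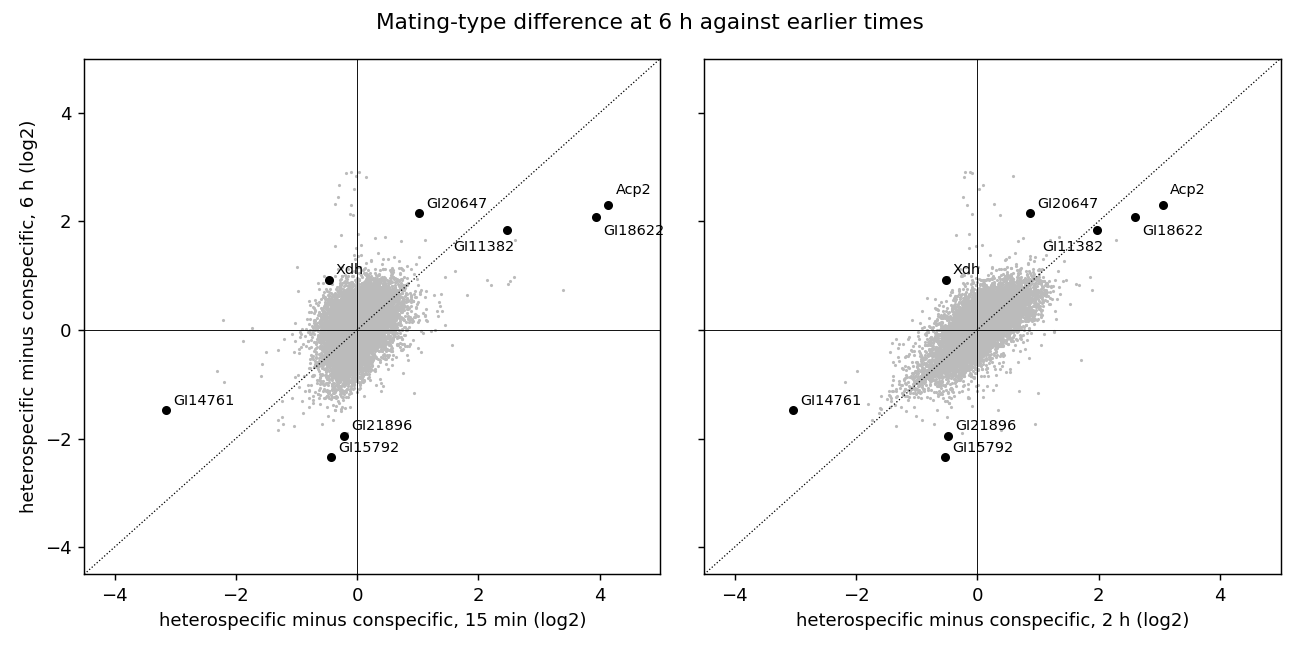
Heterospecific minus conspecific difference at 6 h (log2, y axis) against that at 15 min (left) and at 2 h (right), 1 point per transcript, with a dotted line where both are equal. Acp2, GI18622 and GI14761 lie nearer 0 at 6 h than at the earlier times, and GI15792 and GI21896 are far from 0 at 6 h only.

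No transcript passed the threshold when its 6 h difference was tested directly against an earlier one. The contrast of the 6 h with the 15 min difference called 0 transcripts by limma, with a lowest adjusted p of 0.139, and 466 (3.21%) had an unadjusted p under 0.05. The contrast with 2 h called 0 as well, with a lowest adjusted p of 1.00, and 157 (1.08%) had an unadjusted p under 0.05. Calls in the contrast with 15 min, all with a lower difference at 6 h, appeared when heterospecific 15 min replicate 1 was left out. They did not appear when replicate 2 was left out. In each of these fits 1 array stands for that group, and the spread between its 2 arrays is left out.

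The count of calls at 6 h differed with the arrays fitted. With the 6 arrays of day 1 alone there were 94 calls, 17 higher and 77 lower after heterospecific mating. Without the 4 arrays of low brightness there were 39, of which 2 were higher. With only conspecific replicate 1 left out there were 13, of which 2 were higher. Leaving out only conspecific replicate 2, either heterospecific 6 h array or either heterospecific 2 h array gave 0. All 39 were among the 94, and all 13 were among both. In the fits without conspecific replicate 1, replicate 2 is a lone array that is taken to vary as the other groups do. With day 1 alone the spread comes only from the heterospecific pairs at 2 h and 6 h. Their median absolute differences between arrays were 0.145 and 0.165 among transcripts above background. That of the conspecific 6 h pair was 0.384, so the spread of the lone array may be understated in that fit. Acp2 was the only symbol among the 94, and all 94 had the same sign in the fit of 14 arrays.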

How the data were processed

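Intensities were deposited as 1 perfect-match value for each of 71998 probes on 14 arrays, and per the file headers they were read with NimbleScan 2.4.67. The submitters' processing notes name RMA, with no version, but 0 values of the deposited value table differed from the raw intensity, so the authors' normalized values were not used here. Here intensities were corrected with normexp (offset 50), quantile normalized over all 14 arrays and log2 transformed. Median polish then gave 1 value per transcript (limma 3.58.1 in R 4.3.3). Differences of transcripts with low intensity are understated by this offset. A fit with 1 mean for each of 7 groups (7 residual and 3.56 prior degrees of freedom) gave 2-sided tests with Benjamini-Hochberg adjustment over 14519 transcripts, threshold 0.05. With 2 arrays a group, the number of arrays limits the precision.

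Each array's background limit lies 2 SDs, taken over transcripts below the modal value, above that mode. To bound a fold, the dim group's arrays were raised to their limit where they lay below it, then averaged and compared with the brighter group's mean. Positions are those of the files, whose unit is not given there. Dim arrays are the 4 with a raw upper quartile under 1500. The days are those on which values were read from array images, not days of RNA extraction.

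The text names every transcript past the threshold, the 2 highest and 2 lowest GI identifiers with an unadjusted p under 0.05, groups that do not overlap and a level above background, the 5 highest and 5 lowest symbol-named transcripts above background, and all Acp. Others named were chosen after their values were seen. Members, lists and alternatives were chosen with earlier results of these data known. Planned lists by product name could not be applied, since no identifier matched. Alternatives covered background correction, scaling, probe summary, filter, variance estimate, the arrays fitted, replicate number, day, array weights and probe slope.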

Additional observations from a re-analysis of the deposited data

How the results depend on the processing

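The single call at 6 h became 0 calls with median scaling, with cyclic loess and with the compared groups alone, and 94 with day 1 alone and 39 without the dim arrays. Leaving out 1 array gave 0 to 13 calls, and the count was 1 under every other alternative. The 1428 transcripts with an unadjusted p under 0.05 became 940 when only transcripts above background were tested (9017 of them) and 720 with the day as a block, and 488 to 3220 when 1 array was left out, the lowest without conspecific 6 h replicate 1 and the highest without replicate 2. The contrast with 15 min gave 0 to 16 calls when 1 array was left out, and the contrast with 2 h gave 0 throughout. Arrays of day 1 alone could not give either contrast, since no conspecific array at 15 min or 2 h was read that day. Of 578 values of the 20 named transcripts under the alternatives, 556 kept direction and side of the threshold, 8 lost the call (all GI11382), 13 gained one, and 1 reversed: Acp48, -0.10 under median scaling. Every gained call came from a fit that left a group with only 1 array. Labels give groups the same replicate numbers, but no label says that they mark a shared day or batch, so the main fit has no replicate block. Deviations of replicate 1 from its group mean correlated at r = 0.03 between the heterospecific and conspecific 6 h groups. Over all pairs of groups r ranged from -0.63 to 0.51. With the replicate block the count at 6 h was 1 and the unadjusted count 1194. The cause of these changes was not tested, and some of these fits also hold fewer transcripts or arrays. Signal over background limits the values of the 4976 transcripts not above background in either 6 h group, and the 2 arrays a group limit all others.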
